A study of Mus musculus with 6 samples.

Results

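The replication-dependent histone genes were followed on 6 Illumina bead arrays of CCE mouse embryonic stem cells after knockdown of Prmt6, which encodes an arginine methyltransferase that modifies histones. Every probe whose name on the array began with HIST1H, HIST2H, HIST3H or HIST4H was taken, which gave 52 of 34325 gene names, measured by 88 of 46643 probes. The genes were chosen by name alone, but the family was proposed after the intensities of these genes on the same arrays had been compared between the hairpins. Every count, median and p-value below therefore describes these arrays and supports nothing further.

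This stem cell line was grown feeder-free, with 15% serum and the self-renewal factor LIF. The cells received a pSuper.puro plasmid by lipofection. The plasmid carried Prmt6 shRNA1, Prmt6 shRNA2 or a hairpin against GFP as the control. All groups, the controls included, then spent 4 days in puromycin at 1.5 µg/ml, starting 18 h after transfection. Each group had 2 arrays, and the labels do not state whether these came from separate cultures, so the p-values measure the spread between these samples. The knockdown was transient and total RNA of the whole selected population was measured, so fewer cells of a type and less RNA per cell cannot be told apart.

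Core histones H2A, H2B, H3 and H4 form the nucleosome, and linker histone H1 binds the DNA where it enters and leaves it. Their replication-dependent genes lie in clusters, are transcribed mainly in S phase under the coactivator Npat, and give messages that end in a stem-loop bound by Slbp instead of a poly(A) tail. Some of these genes also give polyadenylated messages, and the labelling kit used here starts cDNA synthesis at poly(A) tails. How much of each signal came from messages of either kind was not tested.

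The probe addresses on the array fall into 2 series. The first, with addresses below 100000000, held 59 of the histone probes, and the second held 29. The filter asked for a detection p below 0.01 on 2 or more arrays and was passed by 49 histone probes, 32 of the first series and 17 of the second. Of the rest, 34 were detected on no array and 5 on 1 array. Of the kept probes, 34 were detected on all 6 arrays, and 7 were detected on no array of at least 1 group. Of the 52 names, 33 had a kept probe. All names matched a RefSeq symbol, with 43 genes on chromosome 13, 6 on chromosome 3 and 3 on chromosome 11. Histone copies are near-identical, so a probe named for 1 gene may also read others, and each assignment to a single gene is uncertain.

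Between 5782 and 10928 probes were detected per array, and between 34 and 53 of the histone probes. First-series values of replicate arrays correlated with Pearson r between 0.964 and 0.979 over 6852 kept probes. In the second series Prmt6 shRNA2 replicate 2 stood apart, with 935 detected probes and r = 0.714 against its replicate over 2286 kept probes. Both kept probes of Prmt6, which belong to the second series, had lower normalized values on each of the 4 knockdown arrays than on either control array. Their deposited intensities were 48.3 and 148 on the Prmt6 shRNA1 arrays, 97.8 and -21.6 on the Prmt6 shRNA2 arrays, against 390 and 266 on the GFP shRNA arrays for probe 105360154. Its log2 difference with Prmt6 shRNA1 was -1.45 (limma, adjusted p = 0.325), and that of probe 106200164 was -1.26 (adjusted p = 0.231). Neither probe was detected on a Prmt6 shRNA2 array, where the values were at least 1.40-fold and 1.06-fold lower than with GFP shRNA, counting from the lowest detected signal (adjusted p = 0.147 and 0.123). Of 9 measured stem cell markers 8 passed the filter, Pou5f1 and Nanog among them.

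No histone probe passed the adjusted threshold of 0.05 in any of the 4 comparisons. Over all 9138 kept probes limma called 0.317% for the average of both Prmt6 hairpins against GFP shRNA, 0.547% for Prmt6 shRNA1, 0% for Prmt6 shRNA2 and 0.0328% for Prmt6 shRNA2 minus Prmt6 shRNA1. Without adjustment, p was under 0.05 for 12.8%, 10.2%, 15% and 10.1% of probes in the same order. In data simulated on the Prmt6 shRNA2 comparison, the fit called 1% of changes of 1 log2 unit and 45% of changes of 2. There 200 of 9138 probes were changed, with independent normal noise. Such rates depend on the share of probes changed, so they need not hold for these arrays. As no histone probe was called, the values of the histone probes are given array by array.

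Among the 32 kept first-series probes the histone classes lay on different sides of the controls with Prmt6 shRNA2 and mostly on one side with Prmt6 shRNA1. With Prmt6 shRNA1 29 probes had a lower mean than with GFP shRNA, with a median log2 difference of -0.42, while the median of all 6852 kept first-series probes was -0.00 and 49.7% of them were above 0. With Prmt6 shRNA2 20 of the 32 histone probes were above 0 and their median was 0.62, beside 60.7% above 0 and a median of 0.10 among all kept first-series probes. Without Prmt6 shRNA2 replicate 2 that median of 0.62 was 0.39. With no filter, over all 59 first-series histone probes, the medians were -0.17 with Prmt6 shRNA1 and 0.0726 with Prmt6 shRNA2. The H1 probe, all H2B probes and all H4 probes were above 0 with Prmt6 shRNA2, and all H3 probes were below 0. A difference of 1 log2 unit or more with Prmt6 shRNA2 was found for 11 of the 32 histone probes and for 2.89% of all kept first-series probes. The 11 include Hist2h2aa1 (probe 4070408) and Hist1h4h (probe 4060446), which were detected on no GFP shRNA array. These probes passed the filter only through knockdown arrays. Both Prmt6 shRNA1 arrays lay below both GFP shRNA arrays for 26 of the 32 and above them for 1, beside 19.1% below and 23.2% above among all kept first-series probes. Both Prmt6 shRNA2 arrays lay above them for 19 and below them for 8, beside 34.7% above and 18.4% below. These comparisons share the GFP shRNA arrays. For the average of both hairpins the median was 0.05 over the 32 histone probes and 0.05 over all kept first-series probes.

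**Figure D1:**
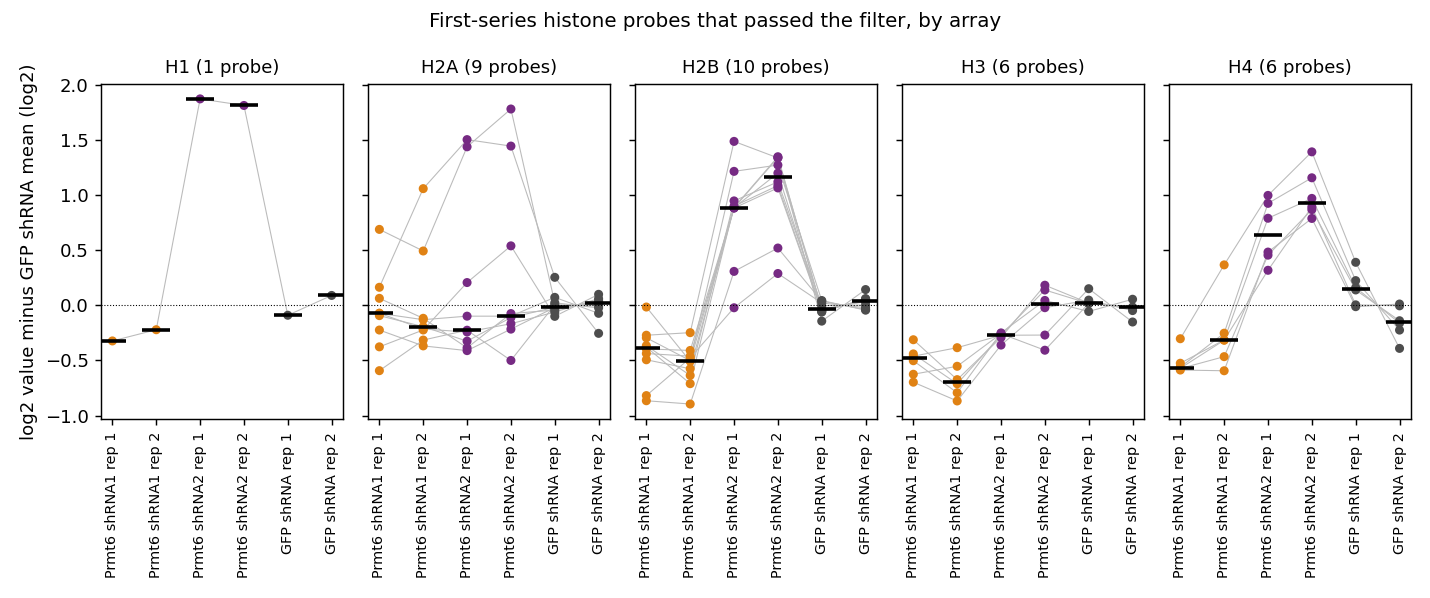
Normalized log2 value of each kept first-series histone probe minus its GFP shRNA mean (vertical axis, log2) on each of the 6 arrays, in a panel per class. Points are probes joined by thin lines, and thick bars are class medians. The H2B medians are 0.89 and 1.16 on the Prmt6 shRNA2 arrays and -0.39 and -0.50 on the Prmt6 shRNA1 arrays, while most H2A points stay close to 0.

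Linker histone H1 was measured by 1 of its 6 first-series probes. Hist1h1c (probe 3870603), which encodes a linker histone found in most cell types, had deposited intensities of 494 and 996 under Prmt6 shRNA1, 3902 and 2641 under Prmt6 shRNA2, against 1042 and 893 under GFP shRNA. After normalization its log2 values were 9.53 and 9.63 on the Prmt6 shRNA1 arrays, 11.73 and 11.67 on the Prmt6 shRNA2 arrays, against 9.76 and 9.94 on the GFP shRNA arrays. Both Prmt6 shRNA2 arrays were above the other 4, and both Prmt6 shRNA1 arrays were just below the controls. Against GFP shRNA the log2 difference was 1.84 ± 0.18 (limma standard error) with Prmt6 shRNA2, 3.59 times the control value, with a 95% interval of 1.40 to 2.28 and an adjusted p of 0.0818. With Prmt6 shRNA1 it was -0.27 ± 0.18 (adjusted p = 0.745). Prmt6 shRNA2 minus Prmt6 shRNA1 was 2.11 ± 0.18 with an adjusted p of 0.0645. The other H1 names, Hist1h1a, Hist1h1b, Hist1h1d, Hist1h1e and the testis gene Hist1h1t, had no kept probe.

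H2B, which pairs with H2A in the nucleosome, was measured by 10 of 18 first-series probes. All 10 were above 0 with Prmt6 shRNA2, from 0.13 to 1.41 with a median of 1.04, and all 10 were below 0 with Prmt6 shRNA1, from -0.88 to -0.26 with a median of -0.47. Both Prmt6 shRNA2 arrays lay above both GFP shRNA arrays for 9 of the 10, beside 34.7% of all kept first-series probes. Both Prmt6 shRNA1 arrays lay below both GFP shRNA arrays for 9 of the 10, beside 19.1%. Both at once held for 8 of the 10 H2B probes, for 15 of all 32 histone probes and for 3.06% of all kept first-series probes.

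Hist1h2bc (probe 6520315) was the brightest kept H2B probe, with intensities of 512 and 980 under Prmt6 shRNA1, 3088 and 1880 under Prmt6 shRNA2, against 1080 and 863 under GFP shRNA. Its normalized values did not overlap between any of the groups, Prmt6 shRNA2 being highest and Prmt6 shRNA1 lowest. The log2 difference was 1.41 ± 0.17 with Prmt6 shRNA2 (adjusted p = 0.0818) and -0.26 ± 0.17 with Prmt6 shRNA1 (adjusted p = 0.756). Another Hist1h2bc probe was detected on no array.

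A pair of probes for Hist1h2bf gave nearly the same reading. Probe 3170168 had intensities of 392 and 570 on the Prmt6 shRNA1 arrays, 1689 and 1276 on the Prmt6 shRNA2 arrays, against 878 and 715 on the GFP shRNA arrays, and probe 5420402 had 379 and 578 under Prmt6 shRNA1, 1680 and 1261 under Prmt6 shRNA2, against 870 and 661 under GFP shRNA. For both probes the arrays with Prmt6 shRNA2 were the brightest and those with Prmt6 shRNA1 the dimmest. The log2 differences with Prmt6 shRNA2 were 0.99 ± 0.20 (adjusted p = 0.155) and 1.03 ± 0.19 (adjusted p = 0.127), and those with Prmt6 shRNA1 were -0.54 ± 0.20 (adjusted p = 0.445) and -0.50 ± 0.19 (adjusted p = 0.460).

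Other H2B probes, chosen after their values were seen, marked the range. Hist1h2bl (probe 6380070) had a difference of 1.24 ± 0.18 with Prmt6 shRNA2 and -0.40 ± 0.18 with Prmt6 shRNA1. Hist1h2bk (probe 6130433) had the lowest value of all 32 probes with Prmt6 shRNA1, -0.88 ± 0.18 (adjusted p = 0.167), beside 0.41 ± 0.18 with Prmt6 shRNA2. Hist2h2be (probe 3360184), which lies in the chromosome 3 cluster, had the smallest H2B difference with Prmt6 shRNA2, 0.13 ± 0.22, and its Prmt6 shRNA2 arrays overlapped those with GFP shRNA.

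H4, the partner of H3, was measured by 6 of 11 first-series probes. All 6 were above both GFP shRNA arrays on both Prmt6 shRNA2 arrays, beside 34.7% of all kept first-series probes. The H4 differences with Prmt6 shRNA2 ran from 0.61 to 1.19 with a median of 0.77. The highest was that of Hist1h4h, which was detected on no GFP shRNA array. With Prmt6 shRNA1 5 of the 6 were below 0, and the median was -0.43.

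Hist1h4a (probe 1940600) had intensities of 332 and 609 on the Prmt6 shRNA1 arrays, 1240 and 1005 on the Prmt6 shRNA2 arrays, against 883 and 684 on the GFP shRNA arrays. Its log2 difference was 0.64 ± 0.19 with Prmt6 shRNA2 (adjusted p = 0.251) and -0.59 ± 0.19 with Prmt6 shRNA1 (adjusted p = 0.360), and averaging the hairpins left 0.02. Hist1h4f (probe 1090504) had 240 and 467 under Prmt6 shRNA1, 870 and 739 under Prmt6 shRNA2, against 700 and 444 under GFP shRNA. Its differences were 0.66 ± 0.22 with Prmt6 shRNA2 and -0.52 ± 0.22 with Prmt6 shRNA1. For both genes all normalized Prmt6 shRNA1 values were lowest and all Prmt6 shRNA2 values highest. The sign of the average of both hairpins turned for both genes without Prmt6 shRNA2 replicate 2, to -0.05 for Hist1h4a and -0.03 for Hist1h4f, and for Hist1h4f also without GFP shRNA replicate 2, to -0.07.

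Hist1h4i was read by 2 kept first-series probes, and by a second-series probe whose values are given further below. Probe 2190450 had intensities of 134 and 270 on the Prmt6 shRNA1 arrays, 632 and 464 on the Prmt6 shRNA2 arrays, against 386 and 226 on the GFP shRNA arrays, and a log2 difference of 1.04 ± 0.24 with Prmt6 shRNA2 (adjusted p = 0.187). Its normalized values were highest on both Prmt6 shRNA2 arrays and lowest on both Prmt6 shRNA1 arrays. Probe 6900092 had a difference of 0.88 ± 0.21. Hist1h4h (probe 4060446), chosen after its values were seen, was not detected on either GFP shRNA array. Its Prmt6 shRNA2 mean was at least 1.31-fold higher than the GFP shRNA bound, the lowest detected signal on each control array or the probe's own value where higher, and its measured log2 difference was 1.19 ± 0.37 (adjusted p = 0.265).

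H3, a known substrate of the Prmt6 enzyme, was measured by 6 of 12 first-series probes. All 6 were below 0 with both hairpins. With Prmt6 shRNA1 they ran from -0.78 to -0.42 with a median of -0.58. Both Prmt6 shRNA1 arrays lay below both controls for all 6, beside 19.1% of all kept first-series probes. With Prmt6 shRNA2 the H3 probes ran from -0.33 to -0.05 with a median of -0.15. On both Prmt6 shRNA2 arrays 2 of the 6 lay below both controls, beside 18.4% of all kept first-series probes. On Prmt6 shRNA2 replicate 2 alone the H3 median was 0.01, with 3 probes on each side of the control mean, and on replicate 1 it was -0.27, so the sign of the H3 median turned without replicate 1.

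Hist1h3b (probe 2760288) had intensities of 1188 and 2396 under Prmt6 shRNA1, 2453 and 1656 under Prmt6 shRNA2, against 3283 and 2103 under GFP shRNA. All 4 normalized Prmt6 shRNA values were below both control values, the differences being -0.42 ± 0.19 (shRNA1, adjusted p = 0.550) and -0.27 ± 0.19 (shRNA2, adjusted p = 0.493). The dimmer Hist1h3b probe, 4780092, had -0.78 ± 0.20 and -0.19 ± 0.20 in the same comparisons. Hist2h3c2 (probe 2030725) had 387 and 756 on the Prmt6 shRNA1 arrays, 887 and 499 on the Prmt6 shRNA2 arrays, against 1075 and 806 on the GFP shRNA arrays, and log2 differences of -0.59 ± 0.17 and -0.33 ± 0.17 for shRNA1 and shRNA2. Again all 4 normalized values of the knockdown arrays were below both controls. Hist1h3i (probe 840398) had 423 and 607 under Prmt6 shRNA1, 766 and 676 under Prmt6 shRNA2, against 959 and 707 under GFP shRNA, with differences of -0.49 ± 0.24 and -0.05 ± 0.24. Its Prmt6 shRNA1 values were below both controls, and its Prmt6 shRNA2 values lay on either side of them.

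**Figure D2:**
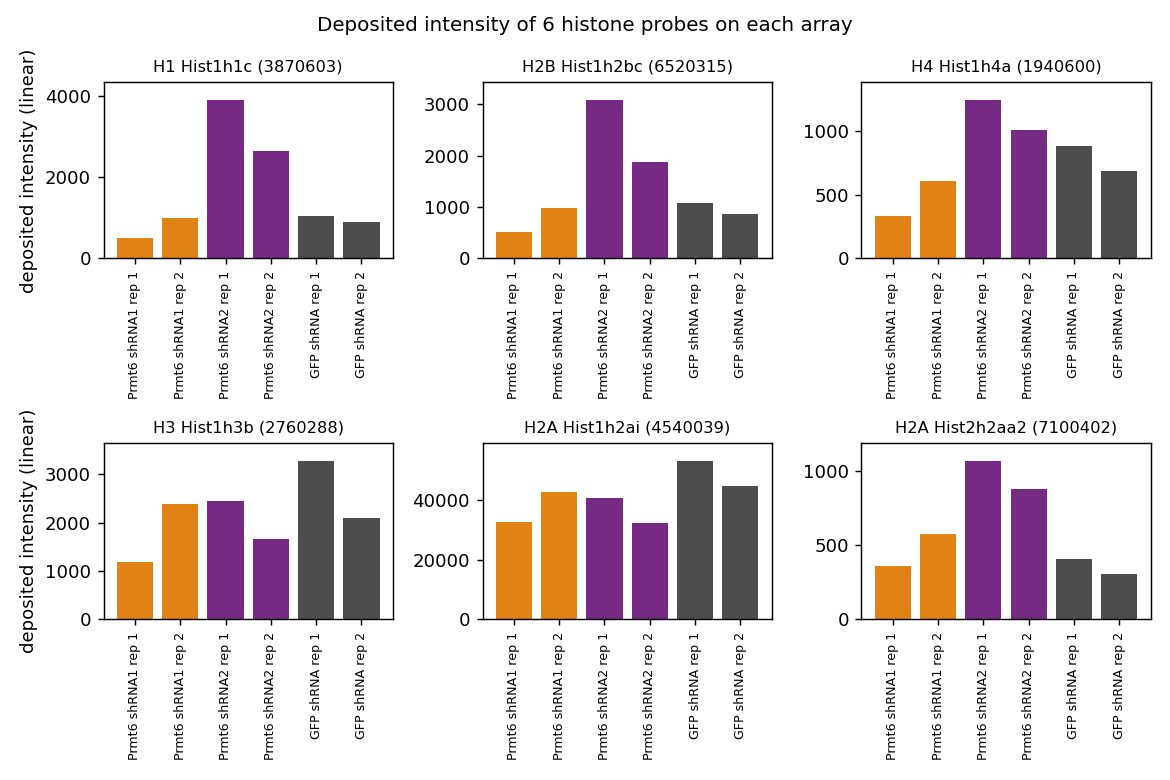
Deposited intensity (vertical axes, linear, a scale per panel starting at 0) of 6 histone probes on each of the 6 arrays, before normalization between arrays. Bars are single arrays. Hist1h1c reaches 3902 and 2641 with Prmt6 shRNA2 while the other 4 arrays stay at or below 1042, whereas the brightest array for Hist1h3b and Hist1h2ai is GFP shRNA replicate 1.

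H2A was measured by 9 of 12 first-series probes and did not lie on one side of the controls. The median difference was -0.14 with Prmt6 shRNA1, and with Prmt6 shRNA2 it was -0.20. These were -0.0725 without Prmt6 shRNA1 replicate 2 and -0.0981 without Prmt6 shRNA2 replicate 1. With Prmt6 shRNA2, 6 of the 9 lay below both controls on both arrays, beside 18.4% of all kept first-series probes. Among the 6 was Hist1h2ab, which was detected on neither Prmt6 shRNA2 array. Hist1h2ai (probe 4540039) had intensities of 32507 and 42915 on the Prmt6 shRNA1 arrays, 40691 and 32319 on the Prmt6 shRNA2 arrays, against 53290 and 44659 on the GFP shRNA arrays. Its log2 differences were -0.10 ± 0.17 with Prmt6 shRNA1 and -0.10 ± 0.17 with Prmt6 shRNA2, with an interval of -0.52 to 0.33 for shRNA2. The Prmt6 shRNA1 values overlapped those of the controls, and both Prmt6 shRNA2 values were just below them. Hist2h2ac (probe 2030600) had 24472 and 32893 under Prmt6 shRNA1, 29945 and 25851 under Prmt6 shRNA2, against 41606 and 35984 under GFP shRNA. Its differences were -0.14 ± 0.18 and -0.22 ± 0.18 with shRNA1 and shRNA2. Hist1h2af (probe 430072) had 19202 and 26129 on the Prmt6 shRNA1 arrays, 24174 and 18862 on the Prmt6 shRNA2 arrays, against 31746 and 29321 on the GFP shRNA arrays, with differences of -0.14 ± 0.17 and -0.20 ± 0.17. For Hist2h2ac and Hist1h2af all 4 knockdown arrays were below both controls after normalization.

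The signal of these 3 H2A probes was a large share of the highest intensity on the arrays. Of the other first-series H2A probes, Hist1h2an reached 29.5% to 43.8% and Hist1h2ah 16.5% to 28.6%. Hist1h2ab, Hist1h2ae, Hist2h2aa1 and Hist2h2aa2 stayed at or below 1.56%. Hist1h2ai reached 51.5% to 77.8% of the highest intensity on its array, Hist2h2ac 41.1% to 60.7% and Hist1h2af 30.0% to 46.3%, while Hist1h2bc stayed between 0.86% and 4.50% and Hist1h1c between 0.83% and 5.69%. The part of this difference in brightness in the difference between the classes was not tested.

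Hist2h2aa1 and Hist2h2aa2, neighbours on chromosome 3, were the H2A names with a mean above that of the controls with both hairpins. They were singled out after their values were seen. The first-series Hist2h2aa1 values with Prmt6 shRNA1 overlapped those of the controls. Hist2h2aa2 (probe 7100402) had intensities of 360 and 576 under Prmt6 shRNA1, 1068 and 880 under Prmt6 shRNA2, against 404 and 303 under GFP shRNA. After normalization all 4 Prmt6 shRNA values were above both control values, and both Prmt6 shRNA2 values were above both Prmt6 shRNA1 values. Its differences were 0.59 ± 0.20 with Prmt6 shRNA1 (adjusted p = 0.402) and 1.61 ± 0.20 with Prmt6 shRNA2 (adjusted p = 0.0818). The average of both hairpins was 1.10 (adjusted p = 0.0857), the largest of the 32 first-series probes. Hist2h2aa1 (probe 4070408) was detected on neither GFP shRNA array. Its Prmt6 shRNA2 mean was at least 1.21-fold above the control bound, and its measured difference was 1.47 ± 0.35 (adjusted p = 0.189). A second-series probe of Hist2h2aa1, 106860056, had intensities of 115 and 284 on the Prmt6 shRNA1 arrays, 457 and 399 on the Prmt6 shRNA2 arrays, against 143 and 138 on the GFP shRNA arrays, with differences of 0.51 ± 0.29 and 1.73 ± 0.29 with shRNA1 and shRNA2.

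**Figure D3:**
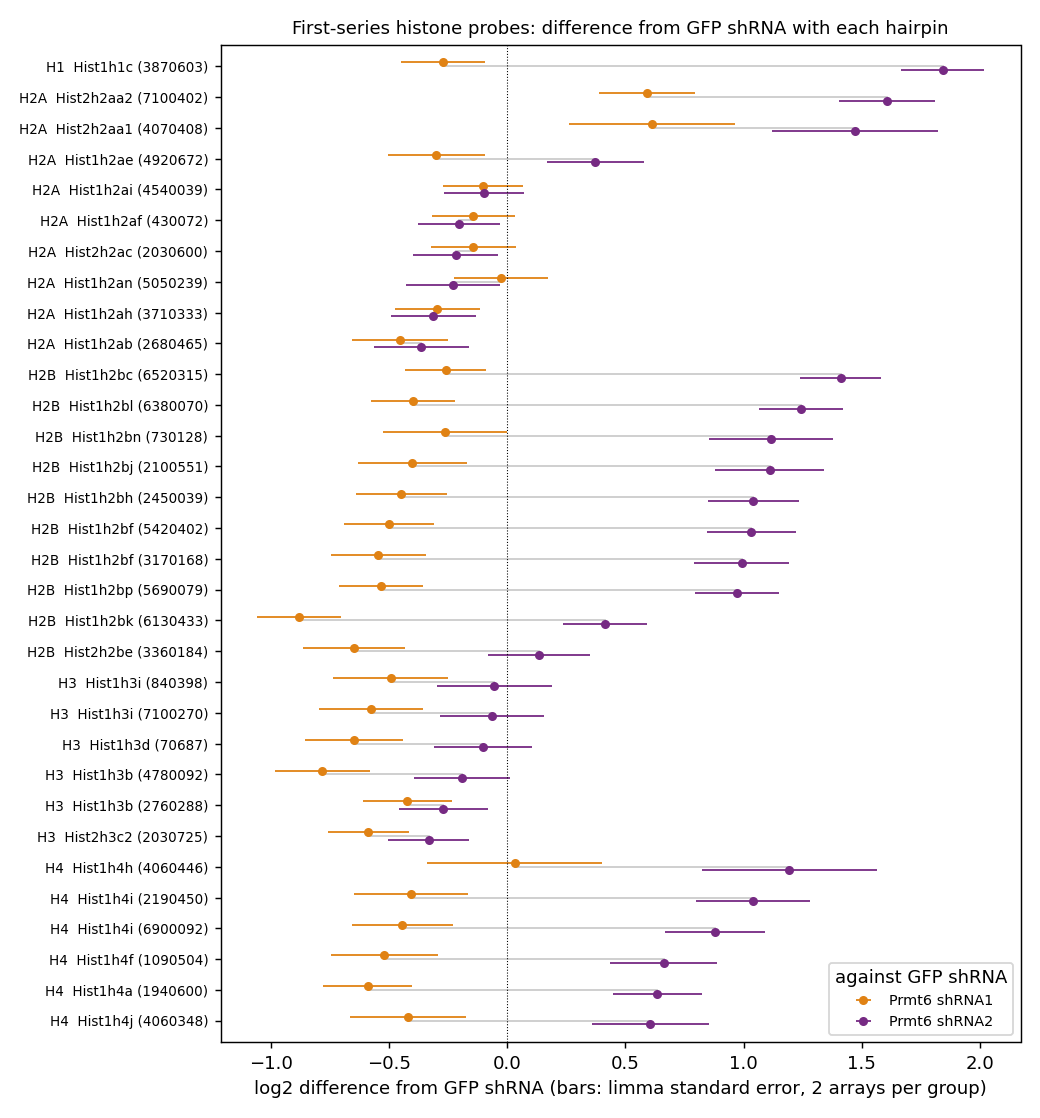
Log2 difference from GFP shRNA (horizontal axis) of the 32 kept first-series histone probes with Prmt6 shRNA1 (orange) and Prmt6 shRNA2 (purple). Points are limma estimates, bars are their standard errors with 2 arrays per group, and grey lines join the hairpins. The Prmt6 shRNA2 points of H2B lie between 0.13 and 1.41 and those of H3 between -0.33 and -0.05.

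The hairpins were then set against each other, a comparison that uses no control array. Prmt6 shRNA2 minus Prmt6 shRNA1 had a median of 1.02 over the 32 first-series histone probes and of 0.09 over all kept first-series probes. With no filter the histone median was 0.28. Both Prmt6 shRNA2 arrays lay above both Prmt6 shRNA1 arrays for 26 of the 32, beside 28% of all kept first-series probes. A difference of 1 log2 unit or more was found for 17 of the 32 histone probes, 9 of them H2B and 6 H4, beside 0.905% of all kept first-series probes. The class medians were 2.11 for H1, 1.51 for H2B, 1.20 for H4, 0.47 for H3 and 0.00 for H2A. The H2A median turned sign under 5 of 18 other settings, the lowest value being -0.09 with cyclic loess, and those of the other classes stayed above 0 under all 18.

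How many histone probes passed the threshold depended on the setting, and probes were called under 6 of 18 alternatives. Histone probes fitted numbered 34 with probes detected on all 6 arrays, 32 with first-series probes alone and 49 in the rest of these 6. Each share set beside a count is of all probes called in either direction. When only probes detected on all 6 arrays were fitted, 10 histone probes were called with Prmt6 shRNA2. All 10 were higher, beside 4.21% of the 5159 probes tested. They were Hist1h1c, Hist2h2aa2 and 8 H2B probes. In the same fit 13 were called higher in Prmt6 shRNA2 than in Prmt6 shRNA1, beside 0.93% of the probes tested, 2 higher (Hist1h1c and Hist2h2aa2) for the average of both hairpins, beside 4.3%, and Hist1h2bk lower with Prmt6 shRNA1, beside 2.46%. With first-series probes fitted alone, 7 were called higher with Prmt6 shRNA2, beside 2.7%, and 13 in Prmt6 shRNA2 minus Prmt6 shRNA1, beside 1.36%. That fit also called Hist1h2bk and Hist1h3b lower with Prmt6 shRNA1, beside 3.05%, and Hist2h2aa2 higher for the average, beside 4.03%. The authors' processed log2 values gave 3 with Prmt6 shRNA2 (Hist1h1c, Hist1h2bc and Hist2h2aa2), beside 0.427%, and 5 in Prmt6 shRNA2 minus Prmt6 shRNA1, beside 0.23%. With offset 50 or cyclic loess Hist1h1c alone was called, in Prmt6 shRNA2 minus Prmt6 shRNA1, beside 0.0985% and 0.12%. Without Prmt6 shRNA2 replicate 1, a fit in which the remaining array was assumed to vary like the other groups, 10 histone probes were called with Prmt6 shRNA2, beside 9.49% of all probes. Of those 10, 7 were higher and 3, the second-series H2A probes of Hist1h2ac, Hist1h2ae and Hist1h2ai, were lower. Those lower calls rest on Prmt6 shRNA2 replicate 2, whose second-series values stood apart. In that fit 16 were called higher in Prmt6 shRNA2 than in Prmt6 shRNA1, beside 7.57%, and for the average of both hairpins 2 were called higher (Hist2h2aa2 and the second-series probe of Hist2h2aa1) and 1 lower (the second-series probe of Hist1h2ae), beside 8.09%.

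Genes of different classes alternate along the chromosomes. Of 4 H2A and H2B pairs that neighbour each other in RefSeq with a kept first-series probe each, all 4 had a higher Prmt6 shRNA2 difference for the H2B gene. Hist1h2bl had 1.24 ± 0.18 beside -0.10 ± 0.17 for its neighbour Hist1h2ai. Hist1h2bp had 0.97 ± 0.18 beside -0.23 ± 0.20 for Hist1h2an. Hist1h2bk had 0.41 ± 0.18 beside -0.31 ± 0.18 for Hist1h2ah. The smallest gap was on chromosome 3, where Hist2h2be had 0.13 ± 0.22 and Hist2h2ac -0.22 ± 0.18. With Prmt6 shRNA1 the order was the other way round, the H2B gene being lower than the H2A gene in each pair. For example, Hist1h2bl had -0.40 and Hist1h2ai -0.10. In each pair the H2A probe was much the brighter. The H2A probes reached 16.5% to 77.8% of the highest intensity on their arrays, and the H2B probes 0.27% to 2.33%. The part of this brightness in the gaps was not tested, and each probe may also read other copies.

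**Figure D4:**
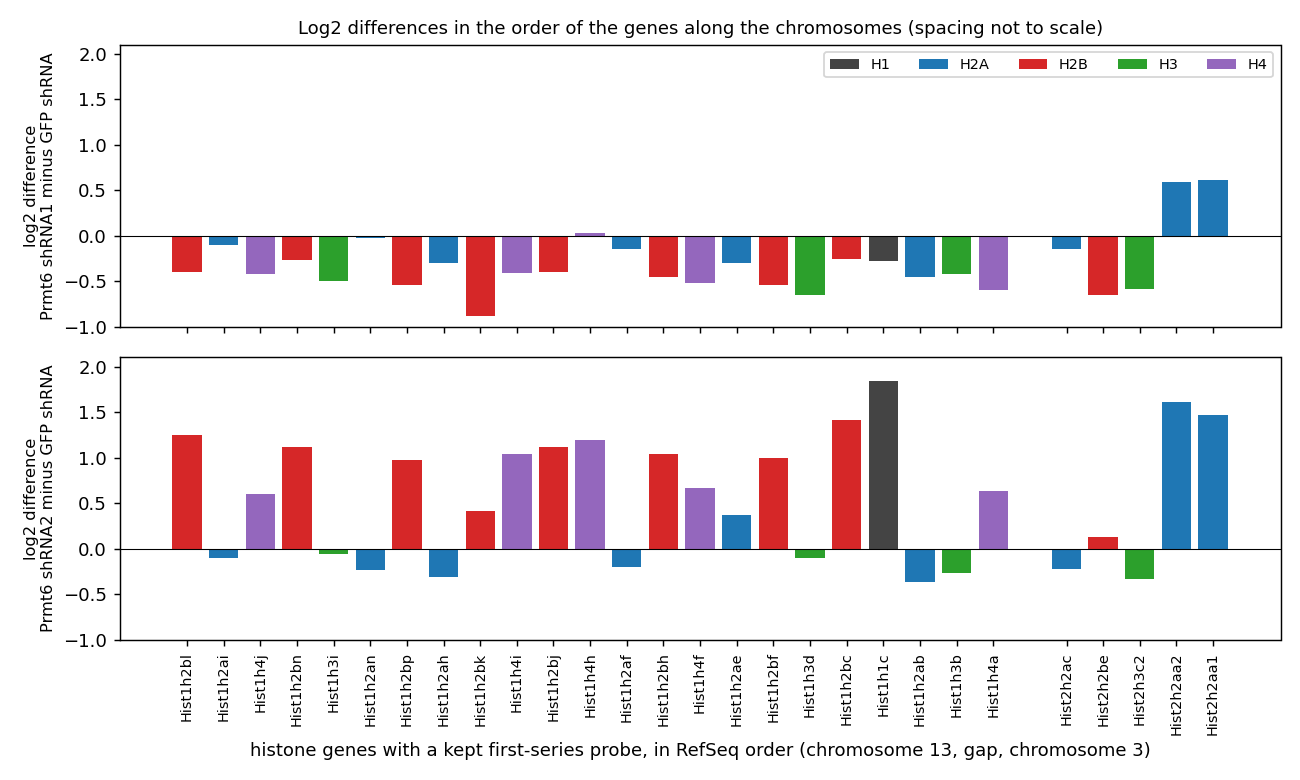
Log2 difference from GFP shRNA (vertical axes) for Prmt6 shRNA1 (upper panel) and Prmt6 shRNA2 (lower panel) of each histone gene with a kept first-series probe, by its brightest probe, in RefSeq order along chromosomes 13 and 3. Bars are coloured by class and spacing is not to scale. In the lower panel H2B and H4 bars stand above 0 beside H2A and H3 bars that are mostly below it.

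Neighbouring H2A and H2B genes can lie head to head with a shared promoter, and the windows of 3 of these 4 pairs overlap on opposite strands in RefSeq. The windows of the Hist2h2be and Hist2h2ac pair were not compared here. The 5 promoter windows below are shown because they belong to genes of each class that the results turn on, with Hist1h2bl standing for such a pair. A window runs from 250 bases before to 50 bases after the gene's start and is printed 5′ to 3′ on the gene's strand, from RefSeq with build GRCm38.p6. Capitals mark matches to the bases of the CCAAT box (CCAAT, or ATTGG on the other strand) and the TATA box (TATAAA, or TTTATA). Matches were marked wherever they lay in the window, and whether any of them works as such a box was not tested. The Hist1h4i match begins at base 114 of its window, and the last Hist2h2aa2 match begins at base 265, after the gene's start. The Hist1h2bl window overlaps by 272 bases with that of Hist1h2ai on the opposite strand. The windows of Hist1h2bp and Hist1h2an overlap by 261 bases and those of Hist1h2bk and Hist1h2ah by 277.
Hist1h1c promoter, chr13:23738557-23738856, plus strand: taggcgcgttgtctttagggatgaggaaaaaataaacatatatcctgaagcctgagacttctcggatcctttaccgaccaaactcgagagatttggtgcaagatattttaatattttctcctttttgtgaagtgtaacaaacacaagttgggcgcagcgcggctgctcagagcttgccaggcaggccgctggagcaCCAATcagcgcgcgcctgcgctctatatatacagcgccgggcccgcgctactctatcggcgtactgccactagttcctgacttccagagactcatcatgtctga
Hist1h2bl promoter, chr13:21716134-21716433, minus strand: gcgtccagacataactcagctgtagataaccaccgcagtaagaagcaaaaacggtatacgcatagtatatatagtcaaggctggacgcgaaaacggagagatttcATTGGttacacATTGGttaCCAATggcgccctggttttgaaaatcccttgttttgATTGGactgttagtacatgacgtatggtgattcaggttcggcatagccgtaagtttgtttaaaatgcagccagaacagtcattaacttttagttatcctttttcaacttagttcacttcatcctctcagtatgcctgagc
Hist2h2aa2 promoter, chr3:96240325-96240624, minus strand: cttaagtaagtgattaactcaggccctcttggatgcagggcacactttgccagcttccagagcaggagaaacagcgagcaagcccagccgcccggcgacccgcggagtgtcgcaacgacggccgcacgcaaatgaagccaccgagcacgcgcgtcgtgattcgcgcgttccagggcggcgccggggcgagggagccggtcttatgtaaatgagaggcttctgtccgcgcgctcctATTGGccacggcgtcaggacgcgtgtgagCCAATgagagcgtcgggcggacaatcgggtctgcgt
Hist1h3b promoter, chr13:23752095-23752394, plus strand: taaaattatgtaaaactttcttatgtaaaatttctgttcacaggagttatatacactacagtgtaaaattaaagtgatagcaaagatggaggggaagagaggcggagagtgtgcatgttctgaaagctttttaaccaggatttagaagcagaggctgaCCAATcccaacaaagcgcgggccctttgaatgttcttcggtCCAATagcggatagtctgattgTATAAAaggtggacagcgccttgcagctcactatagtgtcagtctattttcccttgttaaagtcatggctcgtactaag
Hist1h4i promoter, chr13:22041313-22041612, minus strand: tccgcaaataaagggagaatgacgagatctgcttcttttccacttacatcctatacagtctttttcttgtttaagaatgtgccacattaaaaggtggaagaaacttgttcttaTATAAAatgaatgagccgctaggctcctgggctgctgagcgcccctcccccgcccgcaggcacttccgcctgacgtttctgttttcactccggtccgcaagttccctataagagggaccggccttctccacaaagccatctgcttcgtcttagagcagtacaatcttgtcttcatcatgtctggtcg

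Of the 52 names, 47 had a promoter in the table, with 48 windows in all. CCAAT was found on either strand in 85.4% of the 48 windows and in 37.4% of all 32851 windows of the same length. It was in every H1, H2A, H2B and H3 window and in 3 of 10 H4 windows. TATAAA was found in 64.6% of the histone windows and 13.6% of all windows. The octamer ATTTGCAT (ATGCAAAT on the other strand) was in 7 of 13 H2A and 5 of 13 H2B windows and in none of the H1, H3 and H4 windows, beside 1.74% of all windows. Matches of different motifs were counted separately where they overlapped. Windows of some neighbouring H2A and H2B genes overlap, so a single site can be counted for both genes. The 13 H2B windows belong to 12 genes. The Hist2h2aa1 and Hist2h2aa2 windows hold an identical run of 219 bases. Both genes have a mean above that of the controls with both hairpins, but a probe of either may also read the other. The part of the shared run in these values was not tested.

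The second series held 10 kept H2A probes and 7 kept H4 probes, and no kept H1, H2B or H3 probe. Its values as a whole were lower: the median over all 2286 kept second-series probes was -0.23 with Prmt6 shRNA1 and -0.40 with Prmt6 shRNA2. Of the 10 H2A probes 9 were below 0 with each hairpin, beside 76% of all kept second-series probes with Prmt6 shRNA1 and 71.3% with Prmt6 shRNA2. The H2A medians were -0.38 with Prmt6 shRNA1 and -0.52 with Prmt6 shRNA2. Both Prmt6 shRNA1 arrays lay below both controls for 9 of the 10, beside 30.8% of all kept second-series probes, and both Prmt6 shRNA2 arrays for the same 9, beside 42.7%. Without Prmt6 shRNA2 replicate 2, the array that stood apart, the H2A median with that hairpin was -0.44, and on replicate 2 it was -0.61.

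The brightest of them was Hist1h2af probe 106590280, with intensities of 28405 and 43850 under Prmt6 shRNA1, 39600 and 26752 under Prmt6 shRNA2, against 57911 and 54665 under GFP shRNA. All 4 normalized Prmt6 shRNA values were below both controls, and the differences were -0.42 ± 0.19 and -0.56 ± 0.19 with shRNA1 and shRNA2. Hist1h2an probe 102450161 had 27748 and 42243 on the Prmt6 shRNA1 arrays, 38387 and 27944 on the Prmt6 shRNA2 arrays, against 56911 and 55056 on the GFP shRNA arrays, with differences of -0.48 ± 0.17 and -0.51 ± 0.17. Hist1h2an probe 104570075 had 26443 and 38861 under Prmt6 shRNA1, 36392 and 28119 under Prmt6 shRNA2, against 51180 and 51768 under GFP shRNA, and differences of -0.39 ± 0.17 and -0.37 ± 0.17. All 3 probes had lower normalized values on the 4 knockdown arrays than on both controls. None passed the threshold, with adjusted p between 0.283 and 0.549 against each hairpin. In the order given, they reached 42.6% to 84.5%, 44.5% to 83.1% and 44.4% to 77.9% of the highest intensity on their arrays. The part of this brightness in their differences was not tested.

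Of the 7 second-series H4 probes, all were below 0 with Prmt6 shRNA1, beside 76% of all kept second-series probes. On Prmt6 shRNA1 replicate 1 all 7 lay below the control mean, with a median of -0.75. On replicate 2 the median was 0.01, with 4 probes above the control mean and 3 below it. With Prmt6 shRNA2 5 of the 7 were above 0, while 71.3% of all kept second-series probes were below 0. The H4 median with that hairpin was 0.05, beside 0.77 in the first series. The probes of Hist1h4a, Hist1h4d, Hist1h4f and Hist1h4k, 4 of the 7, were not detected on the Prmt6 shRNA2 arrays and have no fold. Probes of the same name in the 2 series did not always give the same value. With Prmt6 shRNA2, Hist1h2ae had 0.37 ± 0.21 in the first and -1.20 ± 0.47 in the second. Hist1h4i had 1.04 ± 0.24 (probe 2190450) and 0.88 ± 0.21 (probe 6900092) in the first and -0.36 ± 0.57 (probe 106550022) in the second. Second-series Hist1h4i had log2 values of 8.21 and 6.48 on Prmt6 shRNA2 replicates 1 and 2, beside 7.55 and 7.86 on the controls. Hist1h4h had 1.22 ± 0.34 in the second. These second-series values, chosen after they were seen, rest in part on Prmt6 shRNA2 replicate 2. The log2 values of second-series Hist1h2ae there were 8.45 on replicate 1 and 7.08 on replicate 2, beside 8.91 and 9.02 on the controls.

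**Figure D5:**
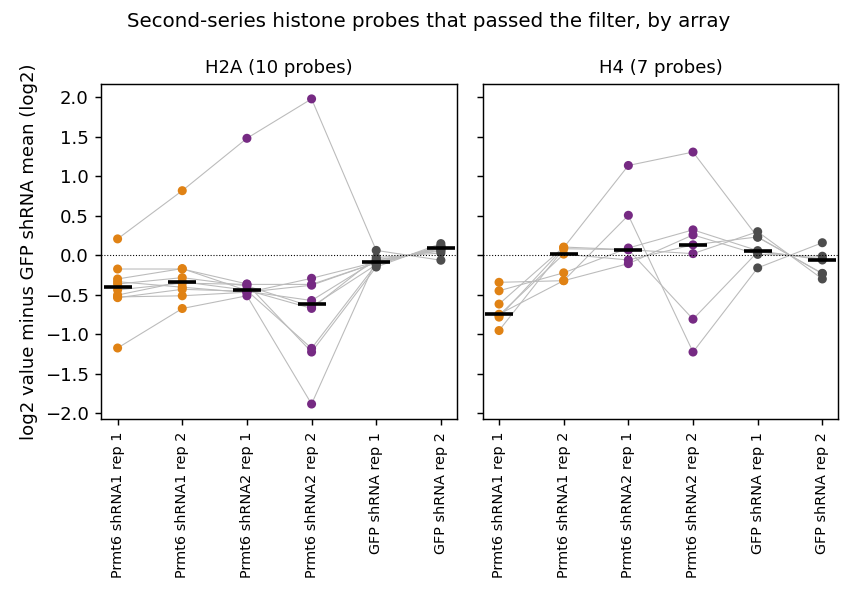
Normalized log2 value of each kept second-series histone probe minus its GFP shRNA mean (vertical axis, log2) on each of the 6 arrays, for H2A (10 probes) and H4 (7 probes). Points are probes joined by thin lines, and thick bars are medians. The H2A medians are -0.40 and -0.34 on the Prmt6 shRNA1 arrays and -0.44 and -0.61 on the Prmt6 shRNA2 arrays, with 1 probe, Hist2h2aa1, above 0.

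Genes that act on histone messages and proteins were measured beside the histones, each by its brightest kept probe. Of 21 genes for histone gene transcription and message processing, 13 were kept and 0 were called in any comparison. Their medians were -0.01 with Prmt6 shRNA1 and 0.02 with Prmt6 shRNA2. Slbp, the stem-loop binding protein, and Npat, the histone gene coactivator, were detected on no array. The Slbp probe had intensities from -38.4 to -13.5. For both genes an absent message and a probe that does not read it cannot be told apart here. Of 20 chaperones and import factors 15 were kept and 0 called, with medians of -0.19 with Prmt6 shRNA1 and -0.01 with Prmt6 shRNA2. The replacement histones, which are also made outside S phase and have poly(A) tails, had 6 of 12 genes kept and 0 called, with medians of -0.37 with Prmt6 shRNA1 and -0.22 with Prmt6 shRNA2. H3f3b, which encodes the replacement form of H3, had intensities of 4438 and 6612 under Prmt6 shRNA1, 7567 and 4461 under Prmt6 shRNA2, against 7633 and 6348 under GFP shRNA (probe 1410300). Its log2 values gave differences of -0.15 and -0.13 with shRNA1 and shRNA2.

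S-phase genes were measured because replication-dependent histone messages are made mainly in that phase. Of 18 such genes 15 were kept and 0 were called. All 15 were below 0 with Prmt6 shRNA1, with a median of -0.20, and 14 were below 0 with Prmt6 shRNA2, with a median of -0.33. Of all kept first-series probes, 49.7% were above 0 with Prmt6 shRNA1 and 60.7% with Prmt6 shRNA2. The 17 measured S-phase genes summed, on the normalized linear scale, to 19692 to 20342 with Prmt6 shRNA1, 18205 to 19369 with Prmt6 shRNA2 and 21674 to 23830 with GFP shRNA. Ccna2 and Ccne2 were detected on no array. Pcna, the sliding clamp of DNA replication, was detected on 1 Prmt6 shRNA1 array, neither Prmt6 shRNA2 array and 1 GFP shRNA array. Its difference with Prmt6 shRNA1 was -0.12 (adjusted p = 0.994). The part of the S-phase genes in the histone values was not tested.

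Markers of other cell states were measured on the same arrays. The 8 kept stem cell markers were all below 0 with each hairpin and 0 were called, with Klf4 and Sox2 detected on neither Prmt6 shRNA2 array, and the 9 measured ones summed to 24373 to 24748 with Prmt6 shRNA1, 21025 to 22649 with Prmt6 shRNA2 and 28506 to 34320 with GFP shRNA. All 6 kept trophectoderm markers were above 0 with each hairpin, and Krt7, Krt8 and Krt18, which encode keratins of simple epithelia, rose with Prmt6 shRNA1 by 5.30 ± 0.36, 3.66 ± 0.19 and 4.36 ± 0.29 log2 units (limma, adjusted p of 0.0115, 0.00611 and 0.0115). All 3 calls were lost when either Prmt6 shRNA1 array or either GFP shRNA array was left out. They were also called in the average of both hairpins, where all calls were lost without any 1 array other than Prmt6 shRNA2 replicate 1, and with Prmt6 shRNA2 alone their differences were 1.21, 1.88 and 1.99, with adjusted p from 0.0818 to 0.251. The 8 trophectoderm markers summed to 15734 to 17602 with Prmt6 shRNA1, 4740 to 4908 with Prmt6 shRNA2 and 2228 to 2472 with GFP shRNA, with Elf5 and Eomes detected on no array. The 8 endoderm markers summed to 7460 to 7655 with Prmt6 shRNA1, 9483 to 9851 with Prmt6 shRNA2 and 4094 to 4353 with GFP shRNA, with Foxa2 and Lama1 detected on no array and 0 of 5 kept genes called. Of 8 fibroblast and feeder markers 7 were detected on no array, collagens among them, and the 8 summed to 531 to 679 with Prmt6 shRNA1, 637 to 713 with Prmt6 shRNA2 and 468 to 491 with GFP shRNA. The part of these cell states in the histone values was not tested.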

How the data were processed

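Total RNA of 6 samples, 2 per hairpin group, was labelled and hybridized to Illumina mouse bead arrays, per the labels' protocols. Per the file headers, the authors deposited a table of bead intensity per probe and array on a linear scale without normalization, with values below 0 where background had been subtracted. Beside each intensity the deposited table gives a detection value, a fraction between 0 and 1 that rose with the signal, so that 1 minus this value was used as the detection p. The authors also deposited processed log2 values, for which lumi is named, without version or method, in the submitters' processing notes; these were used as an alternative, and their centring is not known. Their column medians were 7.10 to 7.12. Array depth has no counts, so the 2 arrays per group limit the precision.

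The neqc function of limma (3.58.1, R 4.3.3, offset 16) was used for background correction and quantile normalization. A group-means model was fitted per probe with lmFit and eBayes to all 9138 probes with detection p under 0.01 on at least 2 of 6 arrays (prior degrees of freedom 2.49, residual 3). P-values are two-sided, adjusted by Benjamini-Hochberg over all kept probes and called below 0.05. The fit was tested on simulated data with 200 changed probes. For a named probe detected on no array of 1 group, the fold is a lower bound against the lowest detected signal, with the fit's adjusted p beside it, and no fold is given where that bound was not above 1. Members, gene lists and tests were chosen with earlier results of these data known. Named were Prmt6, called histone probes, the 3 brightest kept probes per class and of the second series, called genes of the related lists, and Slbp, Npat, Pcna and H3f3b; other names were chosen after their values were seen. Probe names were matched to RefSeq symbols (GRCm38.p6), whose coordinates are used for promoters only. The alternatives changed the filter, background step, offset, normalization, probes fitted, array weights, replicate block and samples.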

Additional observations from a re-analysis of the deposited data

How the results depend on the processing

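The analysis was repeated under 18 alternatives. In 12 of them 0 histone probes were called in all comparisons, as in the analysis reported above. The fit on probes detected on all 6 arrays, where fewer probes were tested, called 2 for the average of both hairpins, 1 with Prmt6 shRNA1, 10 with Prmt6 shRNA2 and 13 in Prmt6 shRNA2 minus Prmt6 shRNA1, and first-series probes fitted alone gave 1, 2, 7 and 13 in that order. The authors' processed log2 values gave 3 with Prmt6 shRNA2 and 5 in the difference, and offset 50 and cyclic loess 1 each in the difference.

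Among first-series histone probes the median with Prmt6 shRNA1 was -0.17 with no filter and -0.27 with the authors' values. With Prmt6 shRNA2 it was 0.0726 with no filter, 0.39 for probes detected on all 6 arrays, 0.48 with the authors' values, 0.49 with the series normalized separately and 0.49 with first-series probes alone. For Prmt6 shRNA2 minus Prmt6 shRNA1 it was 0.28 with no filter, 0.61 with the authors' values and 1.18 with the brightest probe of each name. Leaving out an array gave medians of -0.45 to -0.39 with Prmt6 shRNA1, 0.39 to 0.83 with Prmt6 shRNA2, 0.87 to 1.25 for their difference and -0.05 to 0.15 for the average, and 0 to 10, 0 to 16 and 0 to 3 called histone probes with Prmt6 shRNA2, in the difference and in the average. Among the probes named for their brightness, the average of both hairpins reversed for first-series Hist1h4a and Hist1h4f. For Hist1h4a (0.02 as reported) it was -0.0458 with the series normalized separately and -0.0458 with first-series probes alone. It was -0.0534 without Prmt6 shRNA2 replicate 2, and -0.0534 to 0.0991 over the arrays left out in turn. For Hist1h4f it was -0.0033, -0.0024 and -0.0321 in the same settings, and -0.0684 without GFP shRNA replicate 2. Over the arrays left out the Hist1h4f average ran from -0.0684 to 0.2107. Its sign also turned under some alternatives for first-series Hist1h2ae (-0.0633 to 0.1366) and Hist1h4j (-0.0508 to 0.2364). The same held for second-series probes of Hist1h4a, Hist1h4d, Hist1h4f and Hist1h4m. The cause was not tested. Over all probes the alternatives called 0 to 739 for the average (29 as reported), 0 to 209 with Prmt6 shRNA1 (50), 0 to 867 with Prmt6 shRNA2 (0) and 0 to 692 in the difference (3).

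The labels number the replicates without saying whether equal numbers pair the arrays, and the fit reported above treated them as unpaired. Deviations of same-numbered arrays correlated at -0.34 between the Prmt6 hairpins. They correlated at -0.66 between Prmt6 shRNA1 and GFP shRNA, and at 0.11 between Prmt6 shRNA2 and GFP shRNA. These values do not settle whether the arrays were paired. With the replicate number as a block 0 histone probes were called in each comparison, the medians stayed at 0.05, -0.42, 0.62 and 1.02, and all probes called for the average of both hairpins numbered 0 in place of 29, and those with Prmt6 shRNA1 0 in place of 50.

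Signal limits what can be said: 39 of 88 histone probes did not pass the detection filter, and the bright first-series H2A probe of Hist1h2ai reached up to 77.8% of the highest intensity on an array.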
